A study of Arabidopsis thaliana with 4 samples.

Results

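The transposable elements described here are the 45 elements that the study listed as differing between ndx1-4 and Col-0 flowers, out of 13356 genes and elements listed in any of the deposited tables. Those 13356 had each passed a threshold of the authors and are not all the genes or elements that the study analysed. The 45 elements were grouped by the family name in the table. Families whose names start with ATCOPIA, ATGP or ATHILA formed the LTR retrotransposons (15 elements), LINE and SINE families formed a class of 5, HELITRON and ATREP families formed the Helitrons (6 elements), and all other families formed the DNA transposons (19 elements). The rule places 5 elements whose family is given as Unassigned in the last class, although nothing in the name says that they are DNA transposons, so that class is called "DNA transposons and others" and these 5 are also given apart. The elements were listed because their counts differed between these same libraries at the authors' adjusted p below 0.05, so the genotype differences of the elements are described without a test, and elements that missed the threshold were not analysed here.

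ndx1-4 is an Arabidopsis thaliana line of the Col-0 accession with the T-DNA insertion WiscDsLox344A04 in NDX (NODULIN HOMEOBOX), which encodes a plant homeodomain protein, and Col-0 is the wild type grown beside it. Both genotypes were 5 weeks old, inflorescences were collected, and each genotype had 2 mRNA libraries, each made from pooled RNA of inflorescences of different plants. A single insertion line stands for the loss of NDX, and in bulk tissue fewer cells of a type and less RNA per cell cannot be told apart. NDX itself had 73 and 108 counts in ndx1-4 flowers against 430 and 525 counts in Col-0 flowers (log2 fold change -2.55 ± 0.17 SE).

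Transposable elements are sequences that move or once moved within a genome. LTR retrotransposons, LINEs and SINEs copy themselves through RNA. LTR retrotransposons are framed by a pair of long terminal repeats that carry the promoter, whereas DNA transposons and Helitrons move as DNA. In Arabidopsis most copies are kept silent by DNA methylation and repressive chromatin, and many annotated copies are short fragments, some of them inside genes.

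Some kinds of sequence recur in the results. The first is a pair of TAG2 fragments on chromosome 1 (TAG2 is a DNA transposon family of the hAT type), shown because the counts of the copies swap between genotypes while the letters do not differ. AT1TE18375 lies at chr1:5681490-5681628 on the plus strand and AT1TE20320 at chr1:6273768-6273906 on the minus strand (TAIR10), and 0 of their 139 bases differ. Both read 5′ to 3′ as follows.
AT1TE18375: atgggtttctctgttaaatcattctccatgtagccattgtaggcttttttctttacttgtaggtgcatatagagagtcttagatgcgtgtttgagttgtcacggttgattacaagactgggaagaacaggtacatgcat
AT1TE20320: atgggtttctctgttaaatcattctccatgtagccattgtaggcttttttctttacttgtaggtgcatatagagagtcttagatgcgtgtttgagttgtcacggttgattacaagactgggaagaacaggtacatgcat

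The second kind is the annotated element that lies inside the coding sequence of a gene. The VANDAL1 element AT2TE28180 (chr2:6918536-6918694, minus strand) and the starts of the ATHILA6A element AT3TE27560 (chr3:6559905-6559994, minus strand), the ATCOPIA5 element AT1TE60715 (chr1:18318364-18318453, minus strand) and the ATHILA6A element AT3TE35255 (chr3:8411181-8411270, minus strand) are shown because each is a run of short repeats, whatever its family name. They were picked for these repeats and do not stand for all elements in coding sequence. Of the others mostly in coding sequence, AT3TE29990 had 85.1% of bases of low complexity, AT5TE64925 31.2% and AT3TE00130 0%. Capitals mark CCNCCNCC, searched on both strands with overlapping matches counted.
AT2TE28180: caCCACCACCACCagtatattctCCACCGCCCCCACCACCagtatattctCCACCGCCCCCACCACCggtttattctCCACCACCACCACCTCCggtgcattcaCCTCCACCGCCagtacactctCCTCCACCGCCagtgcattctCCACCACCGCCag
AT3TE27560: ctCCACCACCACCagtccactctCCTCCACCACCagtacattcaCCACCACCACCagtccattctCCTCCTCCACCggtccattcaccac
AT1TE60715: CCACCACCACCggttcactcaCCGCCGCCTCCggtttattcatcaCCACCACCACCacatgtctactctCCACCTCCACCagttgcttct
AT3TE35255: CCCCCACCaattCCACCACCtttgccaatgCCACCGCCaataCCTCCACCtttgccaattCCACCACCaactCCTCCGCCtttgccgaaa

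AT2TE28180 held 20 matches of CCNCCNCC on its own strand, and 3.63% of windows of 159 bases across the 5 chromosomes held at least 1 on either strand. Of all 45 elements, whatever their length, 24 held CCNCCNCC. Of the 13 elements that lie by at least 50% in coding gene exons, 6 held it, so it was not particular to them. The third kind is the full-length retrotransposon. AT1TE12295 is a copy of ATCOPIA78, the family known as ONSEN, which responds to heat, and a stretch of its first terminal repeat (chr1:3780888-3780917, plus strand) is shown because TTCNNGAA, in capitals, is part of the known site of heat shock factors.
AT1TE12295: aaagaTTCTAGAAattTTCTAGAAtcatct

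The terminal repeat of 440 bases held 2 matches of TTCNNGAA, and 17.2% of windows of 440 bases hold at least 1 on either strand. Of all 45 elements, whatever their length, 20 held TTCNNGAA. A match is a description of letters and not a measured binding site.

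Of the 45 elements, 33 were higher and 12 were lower in ndx1-4 than in Col-0 flowers. Scaling computed from the elements themselves gave 23 higher and 22 lower (DESeq2) or 24 higher and 21 lower (TMM). These tallies include a pair of identical TAG2 copies with opposite directions, and without it 32 of 43 were higher and 11 lower. Listed counts of all elements summed to 8794 and 9911 in ndx1-4 libraries against 4902 and 5726 in Col-0 libraries, and after scaling for library size to 7769 and 7152 against 4902 and 4842. Counts here are estimated reads rounded to whole numbers and not normalised, and the scaling factors recovered from the table were 1.13 and 1.39 for ndx1-4 replicates 1 and 2 and 1 and 1.18 for Col-0 replicates 1 and 2. After scaling, ndx1-4 and Col-0 libraries were apart for 44 of 45 elements, against 53.5% of 7981 genes, and since the elements were chosen on this contrast nothing is read from that share. Log2 fold changes (ndx1-4 over Col-0) and standard errors come from a fit with edgeR over all 45 elements. The smallest difference belonged to the ATREP10B element AT1TE67460 (0.15 ± 0.26 SE), followed by the ATHILA6A element AT3TE35255 (-0.54 ± 0.22 SE).

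**Figure D1:**
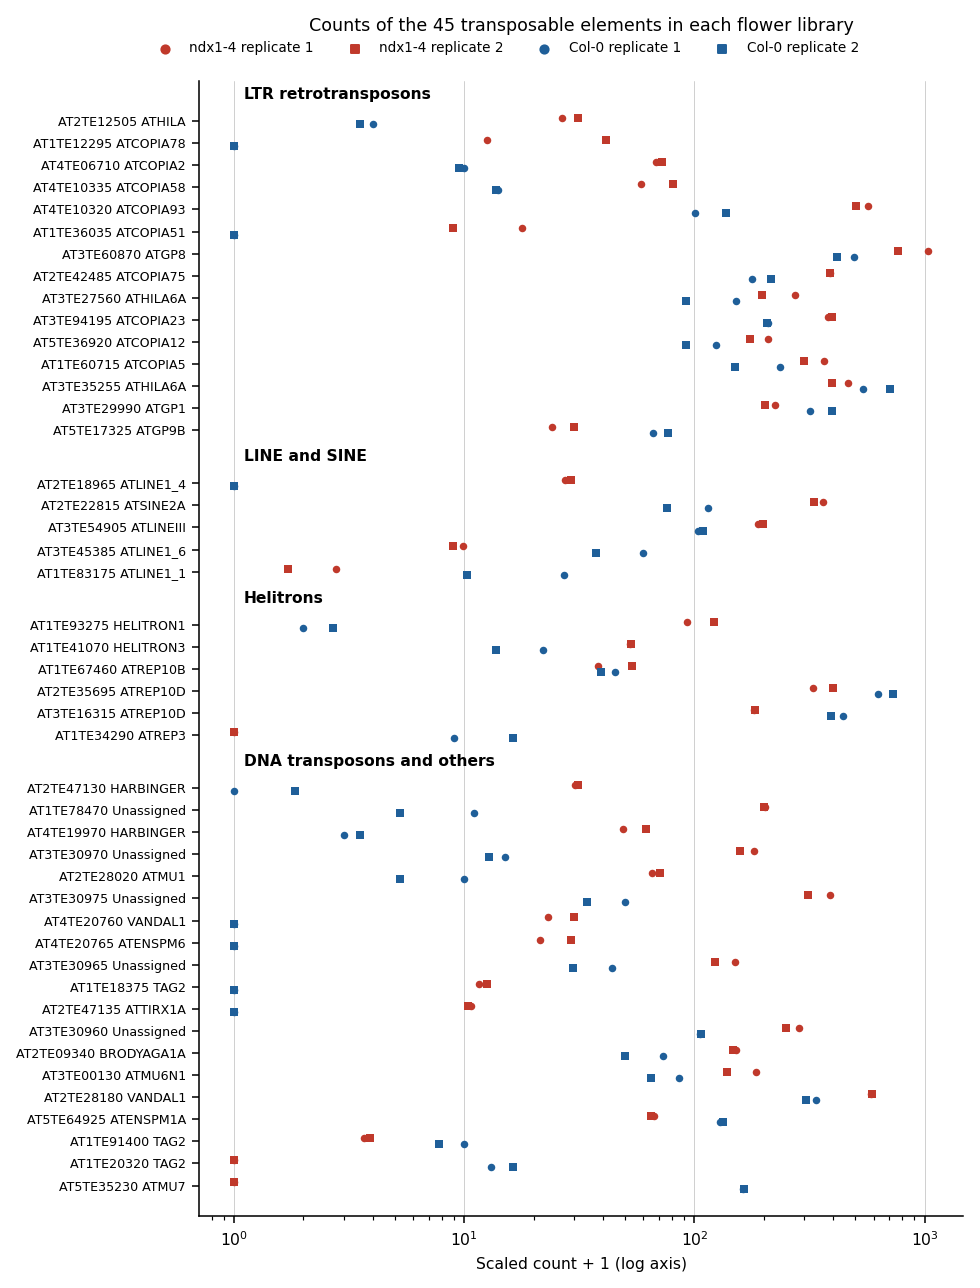
Scaled counts of the 45 elements in each library, plus 1, on a log axis, grouped by class and ordered by fold change. Red marks the ndx1-4 and blue the Col-0 libraries, circles replicate 1 and squares replicate 2. By their means the red points lie to the right for 33 elements, among them AT1TE67460, for which the points of the genotypes mix.

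The number of members that were higher is given by class, beside 33 of 45 over all elements. The classes of 5 and 6 elements are too small for their shares to be set apart from it. Of the LTR retrotransposons 12 of 15 were higher, with a median log2 fold change of 0.98. Of the LINE and SINE elements 3 of 5 were higher (median 0.87). Helitrons were divided evenly, with 3 of 6 higher and a median of -0.38. Of the DNA transposons and others 15 of 19 were higher (14 of 17 without the TAG2 pair), with a median of 3.10, or 1.88 where elements listed at 0 in a genotype are set at the lowest fold that a floor of 3 counts allows. Within that class, 10 of the 14 elements of named families were higher, with a median of 1.49 by the same floor, and 5 of the 5 Unassigned elements were higher, with a median of 3.10. The classes are also described by how many members lie by at least 50% in coding gene exons. In the order above these were 4 of 15, 1 of 5, 4 of 6 and 4 of 19. Of the LTR retrotransposons in exons 2 of 4 were higher (median 0.12), against 10 of 11 elsewhere (median 2.04 by the floor). Of the Helitrons in exons 2 of 4 were higher, against 1 of 2 elsewhere. For LINE and SINE it was 1 of 1 against 2 of 4, and in the last class 3 of 4 against 12 of 15. Scaled counts of the LTR retrotransposons summed to 4102 and 3568 in ndx1-4 against 2424 and 2506 in Col-0. Those of the Helitrons summed to 685.6 and 807.5 in ndx1-4 against 1143 and 1183 in Col-0. Most of the Helitron sum came from the 2 ATREP10D elements. AT2TE35695 stood at 325 and 401 in ndx1-4 against 626 and 726 in Col-0, and AT3TE16315 at 180 and 182 against 443 and 389. Of the other Helitrons, 3 were higher and the ATREP3 element was lower, so the sum does not describe the class. The signs of the LTR and of the LINE and SINE medians depend on scaling by library: factors computed from the 45 elements themselves put them between -0.054 and -0.28, because such factors place the middle of the listed elements near 0. The sign of the Helitron median depends on the filter: it was 0.15 where elements averaging under 10 counts were left out.

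**Figure D2:**
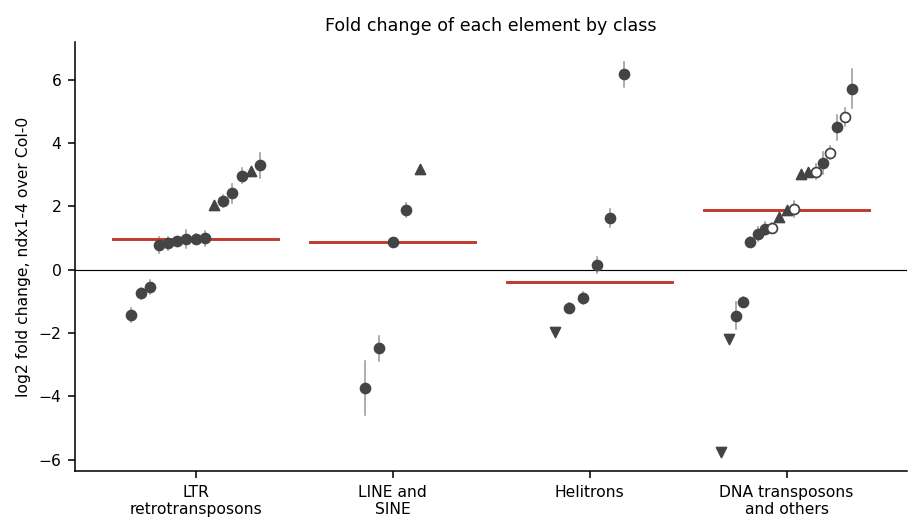
Log2 fold change of each element (ndx1-4 over Col-0) by class, with standard errors as grey bars and class medians as red lines. Triangles are bounds for elements listed at 0 in both libraries of a genotype, and open circles are the Unassigned elements. The Helitron median lies below 0, at -0.38, and the other 3 lie above it.

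With the recovered scaling 9 of 9 ATCOPIA elements were higher, all of different families, with a median log2 fold change of 2.04 by the floor. With factors computed from the 45 elements themselves, AT1TE60715, AT2TE42485, AT5TE36920 and AT3TE94195 fell below 0. AT1TE60715 is 378 bases inside the coding sequence of AT1G49490 and is given with that gene below. Intact members of the Copia superfamily are LTR retrotransposons that encode a polyprotein with protease, integrase and reverse transcriptase. Of the 9, 7 carried both terminal repeats. ATCOPIA93 was represented by AT4TE10320 (chr4:2188979-2194314), with terminal repeats of 390 bases that are 100% identical. It had 640 and 697 counts in ndx1-4 flowers against 100 and 161 counts in Col-0 flowers, a log2 fold change of 2.17 ± 0.20 SE. The genotypes were far apart, and both ndx1-4 libraries were high.

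AT4TE10335, an ATCOPIA58 copy that starts within 10 kb of it (chr4:2198165-2203993), had 65 and 110 counts in ndx1-4 against 13 and 15 counts in Col-0 (2.41 ± 0.29 SE). The ATCOPIA2 copy AT4TE06710 (chr4:1312395-1317221), with an open reading frame of 1330 codons, had 76 and 99 counts in ndx1-4 against 9 and 10 counts in Col-0 (2.98 ± 0.25 SE). For both elements the Col-0 libraries lay close together at a low count.

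The ATCOPIA78 copy AT1TE12295 (chr1:3780765-3785721) was listed at 0 in both Col-0 libraries. In ndx1-4 it had 13 counts in replicate 1 and 56 in replicate 2, so it was at least 8.65-fold higher against the floor, and after scaling its ndx1-4 libraries still stood at 11.5 and 40.4. Without ndx1-4 replicate 2 the bound was 3.83-fold, and without ndx1-4 replicate 1 it was 13.5-fold. Its terminal repeats are 100% identical, and the genome holds 4 other copies at 95% identity or more, the closest at 99.9%, so counts can be divided among copies. The ATCOPIA51 element AT1TE36035 (chr1:11148308-11152649, an open reading frame of 1398 codons) had 19 and 11 counts in ndx1-4 and was listed at 0 in both Col-0 libraries, at least 4.12-fold higher, or 2.65-fold without ndx1-4 replicate 1.

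The remaining full-length Copia copies differed less. AT3TE94195 (ATCOPIA23, terminal repeats 100% identical) had 429 and 547 counts in ndx1-4 against 207 and 243 counts in Col-0, a log2 fold change of 0.91 ± 0.14 SE. Per-library values of the next pair are outside the naming rule and were chosen after they were seen. AT2TE42485 (ATCOPIA75, an open reading frame of 1496 codons) had 437 and 534 counts in ndx1-4 against 176 and 254 counts in Col-0, and AT5TE36920 (ATCOPIA12) had 235 and 239 counts in ndx1-4 against 123 and 107 counts in Col-0. Their log2 fold changes were 0.98 ± 0.16 SE and 0.84 ± 0.20 SE.

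Gypsy-type elements were divided. ATHILA and ATGP families belong to the Gypsy superfamily, whose copies in Arabidopsis gather near centromeres. The ATHILA element AT2TE12505 (chr2:2855656-2857328) had 29 and 42 counts in ndx1-4 against 3 and 3 counts in Col-0, a count ratio of 10.3 (95% exact counting interval 4.49 to 28.9), and 11 other copies reach 95% identity. The ATGP8 element AT3TE60870 (chr3:14916939-14918972) had the most counts of the 45, with 1175 and 1058 in ndx1-4 against 490 and 492 in Col-0 (0.99 ± 0.24 SE). ATGP9B went the other way: AT5TE17325 (chr5:4788495-4791460) had 26 and 40 counts in ndx1-4 against 65 and 90 counts in Col-0 (-1.43 ± 0.23 SE), although it holds an open reading frame of 716 codons. AT3TE60870 has 1 other copy at 95.4% identity and AT5TE17325 has 1 at 99.4%, so their counts can be divided among copies.

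LINE elements, non-LTR retrotransposons, also differed in both directions. AT2TE18965 (ATLINE1_4, chr2:4545528-4547505) had 30 and 39 counts in ndx1-4 and was listed at 0 in both Col-0 libraries, at least 9.11-fold higher. AT3TE45385 (ATLINE1_6, chr3:10917704-10922777) had 10 and 11 counts in ndx1-4 against 59 and 43 counts in Col-0 (-2.48 ± 0.38 SE). AT1TE83175 (ATLINE1_1, chr1:25343349-25343969) had 2 and 1 counts in ndx1-4 against 26 and 11 counts in Col-0, so that the ratio of Col-0 over ndx1-4 was 14.2 (95% exact counting interval 4.50 to 72.1). Leaving out ndx1-4 replicate 1 gave a ratio of 23.5, leaving out Col-0 replicate 1 gave 7.81, and leaving out Col-0 replicate 2 gave 21.8. For none of these 3 elements did ndx1-4 and Col-0 libraries overlap, and the last rests on a total of 3 reads in ndx1-4.

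A group of 15 elements was at 3 counts or fewer in both libraries of a genotype, 11 of them in Col-0 and 4 in ndx1-4. The ATMU7 element AT5TE35230 (MuDR type, chr5:9707753-9708848) was listed at 0 in both ndx1-4 libraries and had 161 and 193 counts in Col-0, at least 54.0-fold lower in ndx1-4. It was the element with the most counts to be listed at 0 in a genotype. Another MuDR-type element, AT2TE28020 (ATMU1, chr2:6881261-6884610), had 73 and 97 counts in ndx1-4 against 9 and 5 counts in Col-0 (3.37 ± 0.34 SE, or 3.96 without Col-0 replicate 1). The HELITRON1 element AT1TE93275 (chr1:28515062-28516118) was also higher, with 104 and 167 counts in ndx1-4 against 1 and 2 counts in Col-0, a count ratio of 78.3 (interval 26.5 to 382).

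A HARBINGER element, AT2TE47130 (chr2:10950317-10952384), had 33 and 42 counts in ndx1-4 against 0 and 1 counts in Col-0 (count ratio 65.0, interval 11.3 to 2602). Leaving out Col-0 replicate 1 gave a ratio of 35.2, whereas leaving out Col-0 replicate 2 left no Col-0 read. AT2TE47135 (ATTIRX1A, chr2:10951683-10952057) lies inside it, so the pair is not independent, and had 11 and 13 counts in ndx1-4 and 0 in both Col-0 libraries, at least 3.18-fold higher. Another HARBINGER element, AT4TE19970 (chr4:4792078-4792849), had 54 and 84 counts in ndx1-4 against 2 and 3 counts in Col-0 (count ratio 23.9, interval 10.01 to 74.9). These intervals cover counting error only.

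The Unassigned elements had the most counts in ndx1-4 among members of the last class that lie outside gene exons. AT1TE78470 (chr1:23837561-23839897) has an open reading frame of 778 codons and lies wholly in the annotated pseudogene AT1G64240. It had 227 and 276 counts in ndx1-4 against 10 and 5 counts in Col-0, a log2 fold change of 4.83 ± 0.29 SE, or 5.53 without Col-0 replicate 1. The other 4 stand in a row at chr3:7366210-7374364 with the same coordinates as the annotated pseudogenes AT3G21010 to AT3G21040. Of these, AT3TE30970 had 205 and 216 counts in ndx1-4 against 14 and 14 counts in Col-0 (3.70 ± 0.21 SE). The values of its neighbours fall outside the naming rule and were chosen after they were seen. AT3TE30975 had 440 and 429 counts in ndx1-4 against 49 and 39 counts in Col-0, AT3TE30965 had 169 and 168 against 43 and 34, and AT3TE30960 had 320 and 346 against 105 and 125. All 4 were higher, by unequal amounts: log2 fold changes ran from 1.33 for AT3TE30960 to 3.70. The gene AT3G21000, 0.819 kb before the row and counted in the same libraries, had a log2 fold change of -0.03 ± 0.33 SE.

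Position gave a further description. Of the elements within 10 kb of another listed element, 10 of 10 were higher in ndx1-4, against 33 of 45 over all elements. They were the chromosome 3 row, AT4TE10320 with AT4TE10335, AT2TE47130 with AT2TE47135, and AT4TE20760 with AT4TE20765. Members of a row or pair share a place and are not separate cases. The elements of the chromosome 3 row also align to each other at 72.5% to 85.7% identity. The pair AT4TE20760 and AT4TE20765 lies in the annotated pseudogene AT4G08090. AT4TE20760 (VANDAL1, chr4:4973591-4973753) had 25 and 40 counts and AT4TE20765 (ATENSPM6, chr4:4974449-4974777) had 23 and 39 counts in ndx1-4, and both were listed at 0 in Col-0. In windows of 2.5 to 4 Mb set around the centromeres, 8 of 8 elements were higher with the recovered scaling, this pair among them. Outside the windows 25 of 37 were higher. With factors computed from the 45 elements themselves, AT3TE54905, AT3TE60870 and AT5TE36920 in the windows fell below 0, as did others outside them.

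By the RefSeq annotation of TAIR10.1, 20 elements overlapped an annotated pseudogene and no coding exon (16 higher), 20 reached by at least 1 base into a coding gene's exon (14 higher), 4 lay between genes and 1 in an intron. Open reading frames of at least 300 codons, read from the sequence alone, were present in 15 elements, of which 13 were higher in ndx1-4. The 2 exceptions were AT5TE17325 and AT3TE45385, described above.

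A set of 13 elements lay by at least 50% of their length in exons of a protein-coding gene. Of these 8 were higher and 5 lower, and they were short (median 378 bases, against 1692 bases for the other 32) and often of low complexity (median 31.2% of bases, against 0.42%). All 13 host genes were counted in the 4 libraries, and the element had the sign of its host gene in 13 of 13 cases. For 10 of 13 the log2 fold changes of element and host lay within 0.3 of each other, and the median absolute difference was 0.06. Elements and genes were counted from the same libraries, so this likeness is not a second measurement. The kit and counting are not described as using strand, and 5 of the 13 elements are annotated on the strand opposite to the gene. Of the 13 host genes, 1 passed the edgeR test over genes, AT2G05540, against 0.0877% of 7981 genes tested, and 7 passed with DESeq2, against 2.54% of genes. The hosts were reached through elements chosen on this contrast.

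**Figure D3:**
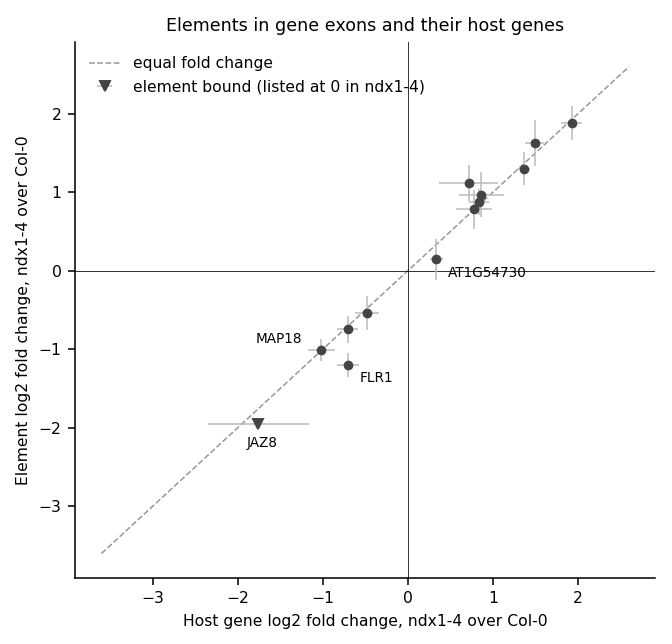
Log2 fold change (ndx1-4 over Col-0) of the 13 elements that lie by at least 50% in exons of a coding gene, against that of the host gene, with standard errors as grey bars. The dashed line marks equal values, and the triangle is a bound for the element in JAZ8. Points lie near the line, with FLR1 the farthest below it.

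Leucine-rich repeat family genes carried 4 of these elements, 3 of them in genes of a pollen list and the other, lower in ndx1-4, in FLR1. AT2TE28180 had 662 and 816 counts in ndx1-4 against 335 and 358 counts in Col-0 (0.88 ± 0.16 SE). Its host AT2G15880 had 13182 and 16248 counts in ndx1-4 against 7384 and 7383 counts in Col-0 (0.84 ± 0.12 SE), and the element's count was 5.02% and 5.02% of the gene's in ndx1-4 against 4.54% and 4.85% in Col-0. The share thus stayed near 5% while both counts differed between genotypes.

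The other 2 pollen hosts have the same pattern, with values chosen after they were seen. AT1TE60715 had 411 and 414 counts in ndx1-4 against 235 and 177 counts in Col-0 (0.79 ± 0.25 SE), and its host AT1G49490 had a log2 fold change of 0.78 ± 0.21 SE. AT3TE27560 had 309 and 272 counts in ndx1-4 against 150 and 107 counts in Col-0 (0.97 ± 0.29 SE), and its host AT3G19020 had 0.87 ± 0.27 SE. All 3 hosts stand in a list of 18 pollen genes, of which 15 were tested. None of the 15 passed the edgeR test, 1 (AT2G15880) passed with DESeq2, 14 had a positive log2 fold change, 6 were higher at an unadjusted p below 0.05 against 10.6% of all genes, and none was lower at that level. Their median was 0.69, against 0.01 over all genes tested. These counts include the 3 hosts, which were reached through elements of the same contrast. Of the other 12 genes, 11 had a positive log2 fold change, 3 were higher at an unadjusted p below 0.05, and the median was 0.57. Summed scaled counts of the whole pollen list were 46129 and 36000 in ndx1-4 against 29503 and 23608 in Col-0. These sums include the 3 hosts. Of these, AT2G15880 alone had 13182 and 16248 counts before scaling in ndx1-4 against 7384 and 7383 in Col-0. The part of the pollen list in the element counts was not tested. Of 12 tapetum genes 11 were tested, and all 11 had a positive log2 fold change, with a median of 0.25. Of the 5 floral organ genes 2 had a positive value, and the median was -0.11. None of either list passed the edgeR test, 5 and 2 were higher at an unadjusted p below 0.05, and 1 and 0 passed with DESeq2.

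Glycine-rich protein genes carried elements as well. The ATGP1 element AT3TE29990 lies in GRP5, a cell wall glycine-rich protein gene, and had 253 and 280 counts in ndx1-4 against 316 and 468 counts in Col-0 (-0.74 ± 0.17 SE, host gene -0.71 ± 0.12 SE). The BRODYAGA1A element AT2TE09340, of 69 bases, lies in an exon of AT2G05540, outside the coding sequence, and had 171 and 202 counts in ndx1-4 against 72 and 58 counts in Col-0 (1.30 ± 0.21 SE, host 1.36 ± 0.08 SE). AT2G05540 had 7131 and 8276 counts in ndx1-4 against 2469 and 2967 counts in Col-0. For this gene, as for its element, both ndx1-4 libraries lay above both Col-0 libraries.

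Other hosts included MAP18, a microtubule-associated protein gene, whose ATENSPM1A element AT5TE64925 had 74 and 88 counts in ndx1-4 against 128 and 156 counts in Col-0 (-1.01 ± 0.14 SE, host -1.01 ± 0.16 SE). The ATSINE2A element AT2TE22815, on the strand opposite to AT2G13550, had 410 and 455 counts in ndx1-4 against 113 and 89 counts in Col-0 (1.88 ± 0.22 SE, host 1.93 ± 0.12 SE). The HELITRON3 element AT1TE41070 in the cyclin gene CYCB1;5 had 58 and 72 counts in ndx1-4 against 21 and 15 counts in Col-0 (1.63 ± 0.30 SE, host 1.49 ± 0.11 SE). In each of the 3 the difference between element and host was smaller than the standard error of the element. A further 2 are given with values chosen after they were seen. AT3TE00130 (ATMU6N1), in the protein kinase family gene AT3G01085, had 209 and 191 counts in ndx1-4 against 85 and 75 counts in Col-0 (1.12 ± 0.22 SE, host 0.72 ± 0.34 SE). AT3TE35255, shown above and on the strand opposite to AT3G23450, had 526 and 546 counts in ndx1-4 against 537 and 837 counts in Col-0 (-0.54 ± 0.22 SE, host -0.48 ± 0.14 SE), and its libraries were apart only after scaling.

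FLR1, a leucine-rich repeat protein gene of flowers, departed most from its element among those with counts in both genotypes. The ATREP10D element AT3TE16315 had 204 and 252 counts in ndx1-4 against 443 and 460 counts in Col-0 (-1.20 ± 0.15 SE), and FLR1 had -0.70 ± 0.13 SE, a difference of -0.49. The ATREP3 element AT1TE34290 in JAZ8, a repressor of jasmonate signalling, was listed at 0 in both ndx1-4 libraries and had 8 and 18 counts in Col-0, at least 3.87-fold lower. JAZ8 had 25 and 57 counts in ndx1-4 against 58 and 199 counts in Col-0. The counts of ndx1-4 replicate 2 and Col-0 replicate 1 lay next to each other, and Col-0 replicate 2 was the highest.

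Elements that reach only partly into exons of a gene could also follow it. AT1TE93275 and the gene AT1G75945, on opposite strands, had log2 fold changes of 6.17 ± 0.40 SE and 6.44 ± 0.47 SE, and AT1G75945 had 270 and 426 counts in ndx1-4 against 1 and 6 counts in Col-0. AT4TE19970 and AT4G07940 had 4.51 ± 0.40 SE and 4.32 ± 0.33 SE. AT3TE94195 shares 4.01% of its length with exons of AT3G62460 and had 0.91 ± 0.14 SE against 0.77 ± 0.09 SE for that gene. The ATREP10D element AT2TE35695 (368 and 555 counts in ndx1-4 against 626 and 859 counts in Col-0) had -0.90 ± 0.20 SE, and MIOX2, a myo-inositol oxygenase gene that it overlaps, had -0.60 ± 0.16 SE. The ATLINEIII element AT3TE54905 (212 and 274 counts in ndx1-4 against 103 and 128 counts in Col-0) lies outside the exons of AT3G32920 but within its span, and had 0.87 ± 0.13 SE against 1.01 ± 0.25 SE for the gene.

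The TAG2 pair shown above had opposite directions. AT1TE18375 had 12 and 16 counts in ndx1-4 and 0 in both Col-0 libraries, and AT1TE20320 had 0 in both ndx1-4 libraries and 12 and 18 counts in Col-0. Taken alone they would be at least 3.69-fold higher and at least 4.54-fold lower. A run of 489 bases around and including the element is identical at both places, so reads of either copy cannot be told apart. The counts of the copies summed to 12 and 16 in ndx1-4 against 12 and 18 in Col-0, or after scaling to 10.6 and 11.5 against 12.0 and 15.2.

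**Figure D4:**
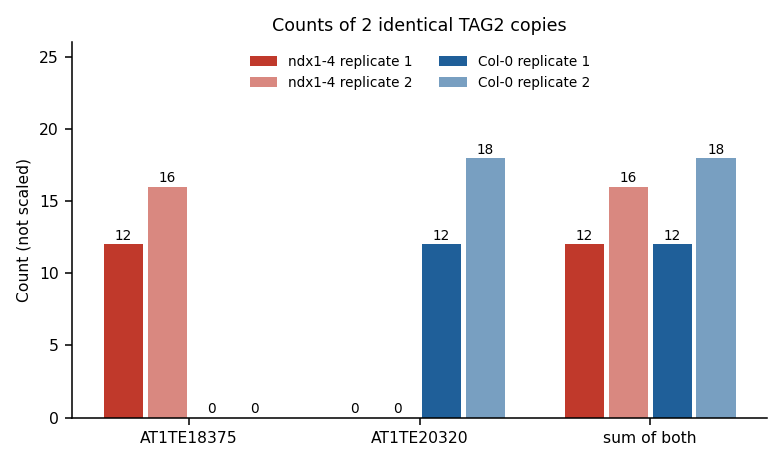
Counts, not scaled, of the identical TAG2 copies AT1TE18375 and AT1TE20320 and of their sum in each library (red ndx1-4, blue Col-0, lighter shades replicate 2). Each copy is at 0 in one genotype, while the sums run from 12 to 16 in ndx1-4 and from 12 to 18 in Col-0.

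Counts and FPKM of the table disagreed for a few elements. The ratio of a count to its FPKM, once divided by library scaling, is proportional to the effective length that the quantification assigned, and it stayed within 1.402-fold across libraries for 42 elements. It varied 5.75-fold for AT1TE67460 (ATREP10B, in AT1G54730), 11.6-fold for the TAG2 element AT1TE91400 and 3.62-fold for AT2TE47130, which has a single read in Col-0. AT1TE67460 had 42 and 73 counts in ndx1-4 against 44 and 45 counts in Col-0, which overlap, but FPKM of 5782 and 12579 in ndx1-4 against 1828 and 1581 in Col-0, which do not. Without ndx1-4 replicate 2 its log2 fold change on counts was -0.14, against 0.15 with it. AT1TE91400, with 3 and 4 counts in ndx1-4 against 9 and 8 counts in Col-0, was chosen for mention after its values were seen.

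Genes of the silencing machinery gave context from outside the element table. Of 57 genes for DNA methylation, small RNA and chromatin silencing, 25 were tested and none passed the edgeR test at an adjusted p below 0.01 (1 passed with DESeq2, ROS1), whereas 7 were higher and 1 was lower at an unadjusted p below 0.05, against 10.6% and 8.70% of all genes. Their median log2 fold change was 0.05, against 0.01 over all genes. ROS1, a DNA demethylase, had 2953 and 3677 counts in ndx1-4 against 1776 and 2207 counts in Col-0 (0.59 ± 0.08 SE). CLSY2, a chromatin remodeller that recruits RNA polymerase IV, had 568 and 609 counts in ndx1-4 against 318 and 374 counts in Col-0 (0.63 ± 0.11 SE). The others higher at an unadjusted p below 0.05 were NRPE1, NRPD2, DCL3, IDN2 and SGS3. CMT3, a DNA methyltransferase of CHG sites, was the 1 lower at that level (-0.23 ± 0.09 SE). CLSY3 had the lowest value, -0.27 ± 0.17 SE. None of these genes passed the adjusted threshold of edgeR. DDM1, MET1, CMT2, DRM2, NRPD1, RDR2 and SUVH4 were among the genes not tested. Of 11 heat response genes, 3 were tested and none passed with edgeR or DESeq2. HSFA7A, a heat shock factor, was the 1 at an unadjusted p below 0.05, with a log2 fold change of 0.94.

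Genes beside the elements were compared next. Within 5 kb of an element, 26 genes that overlap no element were tested. Of these, 0 passed the edgeR test at an adjusted p below 0.01, against 0.0877% of all genes, and 3 passed with DESeq2, against 2.54%. At an unadjusted p below 0.05 there were 8 (5 higher and 3 lower), or 30.8%, against 19.3% of all genes. Among these 26, AT1G54740, 1.92 kb from AT1TE67460, had the largest positive value, 1.66 ± 0.17 SE. AT5G27495, 0.988 kb from AT5TE35230, had the lowest, -1.28 ± 0.31 SE, and like that element it was lower in ndx1-4. ASK3, a SKP1-like gene 0.691 kb from AT2TE47130, had -1.22 ± 0.33 SE, the opposite sign to the element. Neighbours listed only in the genotype table were outside this fit, and they were listed on the same contrast. AT1G05397, 1.35 kb from AT1TE20320, had 177 and 161 counts in ndx1-4 against 9 and 11 in Col-0. AT2G11405, 2.01 kb from AT2TE18965, had 37 and 39 against 0 and 1. AT3G19000, 4.55 kb from AT3TE27560, had 481 and 599 against 247 and 313.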

How the data were processed

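Groups and replicate numbers came from the sample labels. Per the study's methods, the authors quantified single-end mRNA reads with Salmon against Araport11 genes and transposable elements, with GC correction, and keeping duplicates for elements. The deposited tables list only features past the authors' threshold (adjusted p below 0.05 for elements, 0.01 for genes). The estimated counts the authors deposited are rounded and not normalised, and their deposited FPKM values are per effective length and were used only for scaling and for the check of effective length. The authors' fold change and p-value columns were not used. A set of 8 columns of seedling samples was also not used. Library depth is visible only in part: the genes listed held 12355173 and 13814929 counts in ndx1-4 and 10726926 and 12703742 in Col-0.

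Library scaling was recovered as the median count-to-FPKM ratio, set against Col-0 replicate 1, of features holding 50 counts or more in all 4 libraries. Log2 fold changes came from edgeR 4.0.16 (quasi-likelihood, R 4.3.3), fitted over all 45 elements and, apart from these, over 7981 genes listed in both flower-against-seedling tables and averaging 10 counts or more, with Benjamini-Hochberg adjustment. In that fit 7 genes passed 0.01, all higher. Values printed for genes that host or overlap an element come from a fit of all 9143 genes with counts in the 4 libraries, and those of NDX from a fit with the genotype table added (8163 genes). DESeq2 1.42.0 was an alternative. A floor of 3 counts per library was used for elements at 0, and intervals are exact binomial (Clopper-Pearson) at 95%. Table coordinates are TAIR10: 13220 of 13220 nuclear genes had the same coordinates in RefSeq TAIR10.1, which gave sequences and exons. Copies, terminal repeats and low complexity were found with BLAST 2.17.0. The fits were tested on simulated data. Alternatives were other scalings, filters, prior counts, tools, windows and each library left out. Named elements were, per class, the 5 with the largest fold change at a mean of at least 20 counts, those at 3 counts or fewer in a genotype, those whose libraries overlapped and those that overlap a gene of the genotype table. The elements, classes and gene lists were chosen with earlier results of these data known. Replicates are separate pools of plants, and counts of 2 libraries per genotype limit every error given.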

Additional observations from a re-analysis of the deposited data

How the results depend on the processing

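The number of elements higher in ndx1-4 was 33 with the recovered scaling and 32 to 33 with each library left out, and 32 without the identical TAG2 copies, an alternative chosen after seeing the data. Scaling from the 45 elements themselves (DESeq2 size factors, TMM factors, and DESeq2 with its own factors) moved the middle of the elements by 1.13, 1.03 and 1.14 on the log2 scale, by construction, and left 23, 24 and 23 elements higher against 22, 21 and 22 lower. In that order, the LTR median became -0.17, -0.054 and -0.17, the LINE and SINE median -0.28, -0.18 and -0.28, the Helitron median -1.51, -1.42 and -1.51, and the median of DNA transposons and others 1.96, 2.06 and 1.96. The same scalings turned AT1TE60715 to -0.34, -0.24 and -0.34, AT2TE42485 to -0.18, -0.081 and -0.18, AT3TE27560 to -0.17, -0.054 and -0.17, AT5TE36920 to -0.30, -0.20 and -0.30, AT1TE67460 to -0.98, -0.89 and -0.99, AT2TE28180 to -0.26, -0.16 and -0.26, AT3TE54905 to -0.28, -0.18 and -0.28, AT3TE60870 to -0.16, -0.049 and -0.16, and AT3TE94195 to -0.24, -0.14 and -0.24. AT3TE00130 turned to -0.024 in the DESeq2 scalings only. With at least 10 counts on average the Helitron median was 0.15, since 1 of its 6 elements was left out. The median of DNA transposons and others was 2.33 without Unassigned elements, 2.72 with a prior count of 2, and 2.83 to 3.40 with each library left out. With each library left out, AT1TE67460 ran from -0.14 (without ndx1-4 replicate 2) to 0.36.

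Genes past the adjusted threshold numbered 7, but 203 with DESeq2 (118 higher and 85 lower), 22 with genes of the genotype table added, and 0 with any library left out (868 to 1499 at an unadjusted p below 0.05, against 1539). Replicate numbers are shared between genotypes but only as numbers. The deviations of same-numbered libraries correlated at 0.38 over genes and 0.37 over elements, and with the replicate block 281 genes passed (193 higher and 88 lower) while 33 elements stayed higher. Tested genes near elements numbered 15 within 2 kb and 48 within 10 kb, against 26 within 5 kb. With 2 libraries per genotype, elements of few counts carry wide counting error.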
